A study of Arabidopsis thaliana with 4 samples.

Results

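Proteins that fail to fold in the endoplasmic reticulum (ER) are removed by ER-associated degradation (ERAD). In this pathway, lectins bind trimmed sugar chains on misfolded glycoproteins and hand the proteins to a ubiquitin ligase complex in the ER membrane. Derlins take part in their passage to the cytosol, an E2 enzyme supplies the ubiquitin, and an AAA ATPase pulls the tagged proteins out of the membrane for the proteasome. In plants the pathway also clears misfolded receptor kinases, and several of its genes are known to respond to ER stress. The genes described here encode 9 of its components. They are the lectin *OS9* (AT5G35080), the adaptor *HRD3A* (AT1G18260), the ubiquitin ligases *HRD1A* (AT3G16090) and *HRD1B* (AT1G65040), the E2 enzyme *UBC32* (AT3G17000), the derlins *DER1* (AT4G29330), *DER2.1* (AT4G21810) and *DER2.2* (AT4G04860), and the ATPase *CDC48A* (AT3G09840). They were chosen by function, with earlier results of these data known, and found through the locus to which a probe's accession was matched. They were read by 13 of the 43603 gene probes and stood for 9 of the 34290 genes and transcripts tested.

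Transcripts of whole *Arabidopsis thaliana* seedlings were measured on single colour Agilent arrays. There were 2 arrays of Col-0, the wild type, and 2 arrays of *bli-1* (SAIL_107_D04), a mutant of *BLISTER* (*BLI*), and the arrays of a genotype came from biological replicates. All seedlings were 12 days old and had grown in continuous light on medium with sucrose, with no stress treatment. The study's methods report that *bli-1* seeds germinate late and were sown earlier in direct comparisons. Whether the genotypes differed in stage was not tested. The mutant was represented by 1 allele, and a whole seedling mixes its organs, so that fewer cells of a type and less RNA per cell cannot be told apart.

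The 2 probes for *BLI* differed, with log2 fold changes (*bli-1* minus Col-0) of -0.42 and -2.67. Their mean was lower on both *bli-1* arrays than on both Col-0 arrays, but at -1.55 (SE 0.16) it did not pass the test (limma, adjusted p = 0.0823). The probe with the lower value was well above background on 3 of the 4 arrays, and the value of *BLI* ran from -0.42 with the brightest probe to -3.44 with the processed signal over 19 processing alternatives. *BLI* was called lower in 5 of them, among them those without *bli-1* replicate 1 (-1.31; limma, adjusted p = 0.00520) and without dim probes (-1.55; limma, adjusted p = 0.0480). Between 74.7% and 91.7% of the gene spots lay well above background, and no spot was saturated. *bli-1* replicate 2 stood apart in its raw signals: the 25th percentile of the raw intensity was 129.5 against 27 to 29 on the other arrays, and its median was 319 against 139.5 to 208. It shared a slide with both Col-0 arrays, whereas *bli-1* replicate 1 lay on another. The median difference between replicates was 0.11 for Col-0 and 0.22 for *bli-1* (log2 units). All 4 leaf mesophyll markers were well above background on every array, with 2 higher and 2 lower in *bli-1* and a median log2 fold change of -0.05. The lowest was *CA1* at -0.81 (SE 0.15; limma, adjusted p = 0.199). limma called none of the 4 leaf markers, or 1 lower with the unadjusted p, against 2.69% of all genes and transcripts. The 3 root hair markers were lower on both *bli-1* arrays than on both Col-0 arrays, as were 23.0% of all genes and transcripts. Their median difference from the Col-0 mean was -0.15 on replicate 1 and -1.30 on replicate 2. *COBL9* on *bli-1* replicate 1 (9.92) nearly met Col-0 replicate 2 (9.93). The probes of *PRP3* were all well above background on only 2 of the 4 arrays. limma called none of the 3, or 1 lower with the unadjusted p, against 2.69% of all genes and transcripts. No seed or embryo marker of 4 was well above background on all arrays, and their median log2 fold change was 0.09. The part of these differences in the results was not tested.

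Signal of the ERAD genes was higher in *bli-1* than in Col-0 for 8 of 9 genes and lower for *HRD1A* (in 15 of 19 processing alternatives, and higher in the other 4), with *OS9*, *DER1* and *HRD1B* at least 1.5-fold higher, yet none of the 9 passed the test. The threshold was an adjusted p below 0.05 in limma together with a 1.5-fold change, which 0.0962% of all genes and transcripts passed as higher and 0.0175% as lower. With the unadjusted p in place of the adjusted one, limma called 3 of the 9 higher and 0 lower, against 2.48% and 2.69% of all genes and transcripts. The log2 fold changes of the 9 had a median of 0.43, against -0.01 over all genes and transcripts, of which 49.1% were higher and 50.9% lower in *bli-1*. A 1.5-fold higher value was found in 33.3% of the 9 and in 4.93% of all. Both *bli-1* arrays lay above both Col-0 arrays for 8 of the 9, against 21.2% of all. All 9 were well above background on every array, but only 22932 of the 34290 were, so the shares of all include dimmer genes. Without dim probes, the unadjusted p gave 3.49% of all higher and 3.76% lower (limma). The genes share the same 4 arrays, so these shares are descriptions of one set of seedlings. The 9 genes were also chosen with earlier results of these data known.

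**Figure D1:**
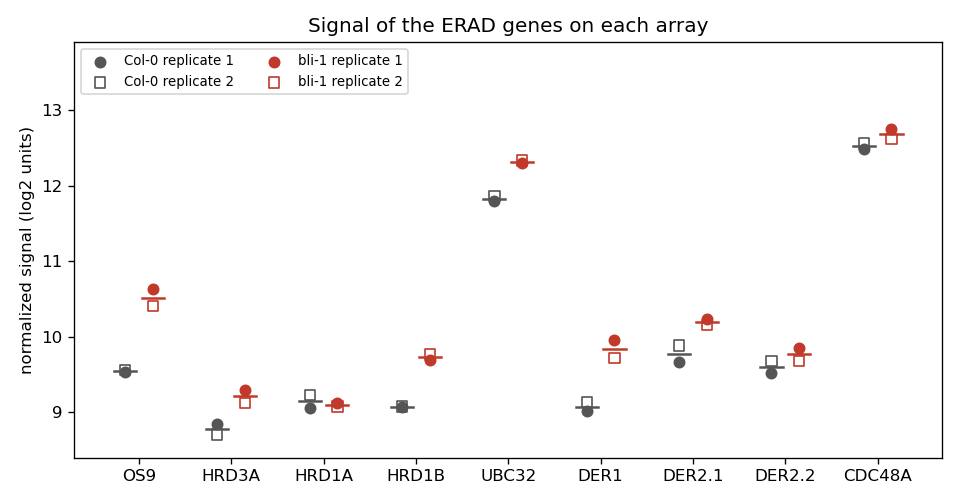
Normalized signal (y axis, log2 units) of the 9 ERAD genes (x axis) on each of the 4 arrays, with lines at the mean of each genotype. Col-0 is grey and *bli-1* red; the genotypes overlap for *HRD1A* alone, and the widest gap is that of *OS9*.

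*OS9* encodes the ER lectin that recognizes the trimmed sugar chains of proteins bound for degradation, and it had the highest log2 fold change of the 9 genes. Its normalized signal (log2 units, as for all levels below) was 9.54 and 9.56 on the Col-0 arrays and 10.63 and 10.40 on the *bli-1* arrays. The genotypes lay well apart, and the SD of *bli-1* (0.16, n = 2) was wider than that of Col-0 (0.017, n = 2). The log2 fold change was 0.97 (SE 0.14), or 1.95-fold, with a 95% interval from 0.60 to 1.33 and an adjusted p of 0.135 (limma). Ranked by unadjusted p, *OS9* stood at place 289 of 34290. Its 2 probes gave like values, 1.01 and 0.92. Before any correction, the first of them read 527 and 831.5 on the Col-0 arrays and 1938 and 1980.5 on the *bli-1* arrays. These raw readings include the overall brightness of the arrays. The raw median of all gene spots was 139.5 and 187 for Col-0 and 208 and 319 for *bli-1*.

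*HRD3A*, also known as *EBS5*, encodes the membrane adaptor that receives substrates for the HRD1 ligase. Signals of 8.84 and 8.70 on the Col-0 arrays stood against 9.30 and 9.12 on those of *bli-1*. The genotypes did not overlap, although the gap between the nearest arrays was narrower than for *OS9*. The log2 fold change was 0.43 (SE 0.14; limma, adjusted p = 0.408), and its probes gave 0.48 and 0.39.

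*HRD1A* and *HRD1B* encode related RING-type ubiquitin ligases of the ER membrane, which act redundantly in Arabidopsis. The *HRD1B* values of the genotypes lay apart and those of *HRD1A* overlapped. *HRD1B* read 9.07 and 9.08 on Col-0 arrays, against 9.69 and 9.77 for *bli-1*, so that the replicates of each genotype lay close together. Its log2 fold change was 0.66 (SE 0.12), or 1.58-fold, with an adjusted p of 0.199 (limma) and probe values of 0.67 and 0.64. *HRD1A* read 9.06 and 9.23 on Col-0 arrays, against 9.12 and 9.07 for *bli-1*, and both *bli-1* values lay within the range of Col-0. Its log2 fold change was -0.05 (SE 0.13; 95% interval -0.39 to 0.29; limma, adjusted p = 0.897), and the sign turned in 4 of 19 processing alternatives. Relative to *HRD1A*, *HRD1B* was higher in *bli-1* by 0.70 on the log2 scale, with 0.64 on replicate 1 and 0.76 on replicate 2. The Col-0 arrays lay 0.08 above and below their own mean in this ratio.

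*UBC32* encodes the ER-bound E2 enzyme that is known from Arabidopsis for a role in brassinosteroid-linked salt tolerance. The Col-0 arrays read 11.79 and 11.86, and the *bli-1* arrays 12.30 and 12.33. Replicates of both genotypes lay closer to each other than to the other genotype. The log2 fold change was 0.49 (SE 0.12), or 1.40-fold, which is under the minimum of 1.5-fold, with an adjusted p of 0.297 (limma). Its relatives *UBC33* and *UBC34*, which are E2 enzymes of the same family, had log2 fold changes of 0.28 and 0.09. The probes of *UBC34* differed in sign, with 0.21 for the brighter and -0.04 for the dimmer.

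**Figure D2:**
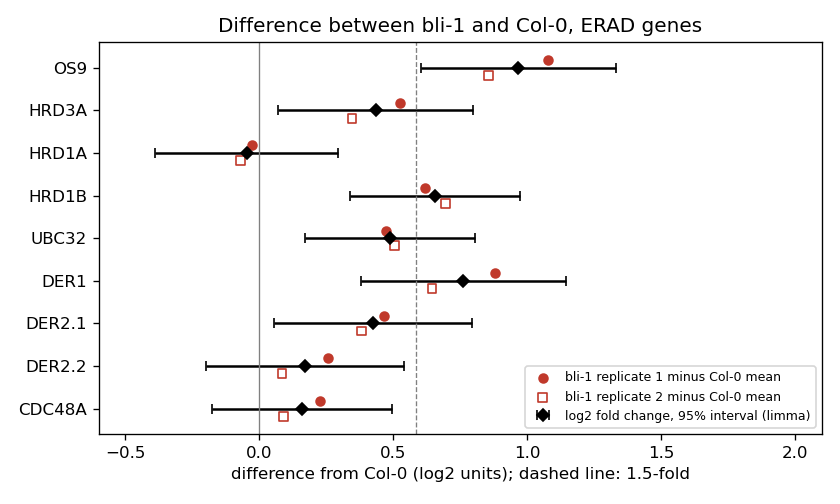
Difference from Col-0 (x axis, log2 units) of each ERAD gene (y axis), as the limma log2 fold change with its 95% interval and as each *bli-1* array minus the Col-0 mean. The intervals of *HRD1A*, *DER2.2* and *CDC48A* span 0, and that of *OS9* alone lies wholly above the dashed line at 1.5-fold.

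The 3 derlin genes encode multispanning ER membrane proteins, and by log2 fold change they stood in the order *DER1*, *DER2.1*, *DER2.2*. *DER1* read 9.01 and 9.14 on Col-0 arrays, against 9.95 and 9.72 for *bli-1*, which gave a log2 fold change of 0.76 (SE 0.15), or 1.69-fold (limma, adjusted p = 0.209). *DER2.1* read 9.66 and 9.88 on Col-0 arrays, against 10.24 and 10.15 for *bli-1*, with a log2 fold change of 0.42 (SE 0.14; limma, adjusted p = 0.430). *DER1* stood well apart between the genotypes, and *DER2.1* did so by less. *DER2.2* read 9.52 and 9.68 on Col-0 arrays, against 9.85 and 9.68 for *bli-1*. The nearest arrays of the genotypes were almost level for this gene, and its log2 fold change was 0.17 (SE 0.14; 95% interval -0.20 to 0.54; limma, adjusted p = 0.672). Relative to *DER2.2*, *DER1* was higher in *bli-1* by 0.59 and *DER2.1* by 0.25, and *DER1* exceeded *DER2.1* by 0.34.

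*CDC48A* encodes the AAA ATPase that extracts ubiquitinated proteins and serves many other processes in the cell. The Col-0 arrays read 12.49 and 12.56 and the mutant arrays 12.76 and 12.62, and the genotypes lay next to each other without overlap. The log2 fold change was 0.16 (SE 0.13; 95% interval -0.18 to 0.49; limma, adjusted p = 0.667). Its probes gave 0.22 and 0.09, and on the second probe the genotypes overlapped, with 13.11 and 13.08 on Col-0 arrays, against 13.39 and 13.00 for *bli-1*. The related genes *CDC48B* and *CDC48C* had log2 fold changes of 0.12 and 0.17. The probes of *CDC48B* disagreed, with 0.34 for the brighter and -0.10 for the dimmer. Its *bli-1* arrays also disagreed, with differences from the Col-0 mean of 0.37 on replicate 1 and -0.13 on replicate 2.

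In all, 8 pairs of related genes were compared by the ratio of their signals within an array: *HRD1B* with *HRD1A*, the derlins with one another, *UBC32* with *UBC33* and *UBC34*, and *CDC48A* with *CDC48B* and *CDC48C*. With 2 arrays against 2, a two-sided exact permutation test cannot go below p = 0.333, so none of these differences could pass it. That smallest p was reached by 6 of the pairs, while both *CDC48A* pairs gave an exact permutation p of 1. *UBC32* exceeded *UBC33* by 0.21 and *UBC34*, whose probes differed in sign, by 0.40 in this measure. Probes for close relatives can bind each other's transcripts, and this was not tested.

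All 13 probes of the ERAD genes were well above background on all 4 arrays, and their raw intensities ran from 201 to 12005. The probes of all 4 genes that had more than 1 gave the same sign. On *bli-1* replicate 1 the median difference of the 9 genes from the Col-0 mean was 0.47, and on replicate 2, which shared the slide of the Col-0 arrays, it was 0.38. Replicate 1 was the higher one for 7 of the 9 genes, and *HRD1B* and *UBC32* were the exceptions.

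The calls of *OS9*, *DER1* and *HRD1B* changed with the arrays used and with their normalization. With slide as a block, only *bli-1* replicate 2 was compared with Col-0, and limma called these 3 genes higher, with adjusted p of 0.00405 for *OS9*, 0.0138 for *DER1* and 0.00873 for *HRD1B*. Their log2 fold changes were then 0.85, 0.64 and 0.69. *UBC32* had an adjusted p of 0.0288 in that fit but stayed under 1.5-fold at 0.51. The spread then came from the Col-0 arrays alone, the lone *bli-1* array was assumed to vary like them, and 9.33% of all genes and transcripts were called higher and 7.27% lower. Without *bli-1* replicate 1 the same 3 genes were called, at 8.66% of all genes and transcripts higher and 6.20% lower. Without *bli-1* replicate 2 none was called when the 3 remaining arrays were normalized by themselves, and the same 3 genes were called when the normalization of all 4 arrays was kept, at 3.5% of all genes and transcripts higher. In every alternative the log2 fold change lay between 0.84 and 1.08 for *OS9*, between 0.63 and 0.89 for *DER1*, and between 0.62 and 0.78 for *HRD1B*.

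**Figure D3:**
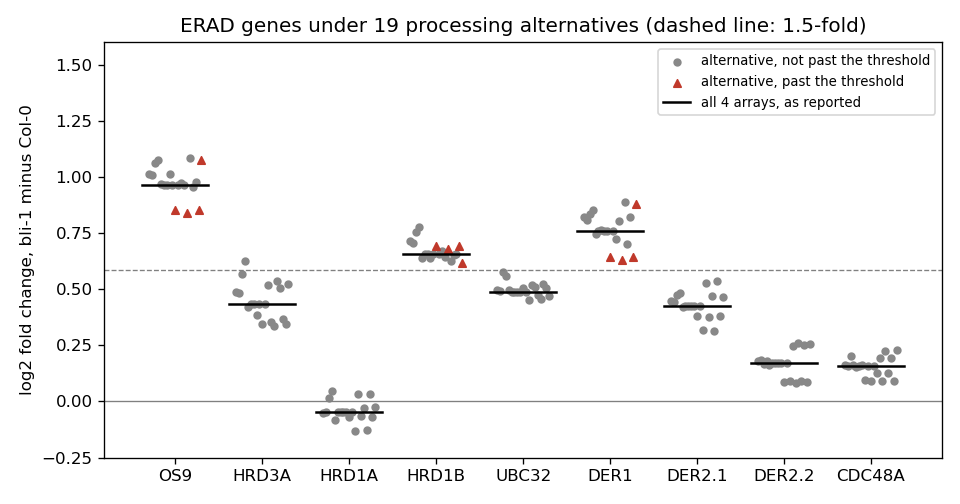
Log2 fold change (y axis) of each ERAD gene (x axis) under 19 processing alternatives (points, with triangles where the gene was called) and with all 4 arrays as reported (line). Every value of *HRD1A* lies between -0.13 and 0.044, and calls occur for *OS9*, *DER1* and *HRD1B*, in 4 alternatives each.

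A wider list of 30 genes with known roles in the pathway held other ligases, E2 enzymes, mannosidases, CDC48 cofactors and shuttle proteins of the proteasome. A probe was found for 29 of them, and limma called 0 higher and 0 lower. The shares of all genes and transcripts were 0.0962% and 0.0175%. With the unadjusted p, 1 of the 29 was called higher and 0 lower, where 2.48% and 2.69% of all were, so that the count lay near the background. The log2 fold change was positive for 20 and negative for 9, with a median of 0.11. Both *bli-1* arrays lay above both Col-0 arrays for 13 genes, and below them for 2, where 21.2% and 23.0% of all genes and transcripts did so.

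The gene of this list with the highest log2 fold change, and higher than any of the 9, was AT4G32670, annotated as a RING/FYVE/PHD zinc finger protein. It read 9.08 and 9.16 on Col-0 arrays, against 10.42 and 10.76 for *bli-1*, with a log2 fold change of 1.47 (SE 0.16; limma, adjusted p = 0.0895). The genotypes were far apart, and the gene was called in 5 of 19 alternatives. Next came AT2G29070 with 0.47 (limma, adjusted p = 0.310) and AT4G29960 with 0.42 (limma, adjusted p = 0.515), both of which had no overlap between genotypes. Without dim probes, the ligase gene *RMA1* would come before them at 0.63 (limma, adjusted p = 0.156).

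The lowest log2 fold change among the wider list was -0.30 (SE 0.14; limma, adjusted p = 0.590), for *CER9*, which encodes a ligase related to yeast Doa10. Its 3 probes disagreed, with values of 0.09, -0.55 and -0.43, and its brightest probe was the one above 0. *MNS4*, which encodes a mannosidase that trims sugar chains in ERAD, had a log2 fold change of -0.08 (SE 0.14), and its sign turned in 4 of 19 alternatives. *RMA1*, a RING ligase of the ER membrane, was looked at after its values were seen. Its brighter probes had log2 fold changes of 0.61 and 0.65, and its remaining dim probe, well above background on 1 array, had -0.11.

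**Figure D4:**
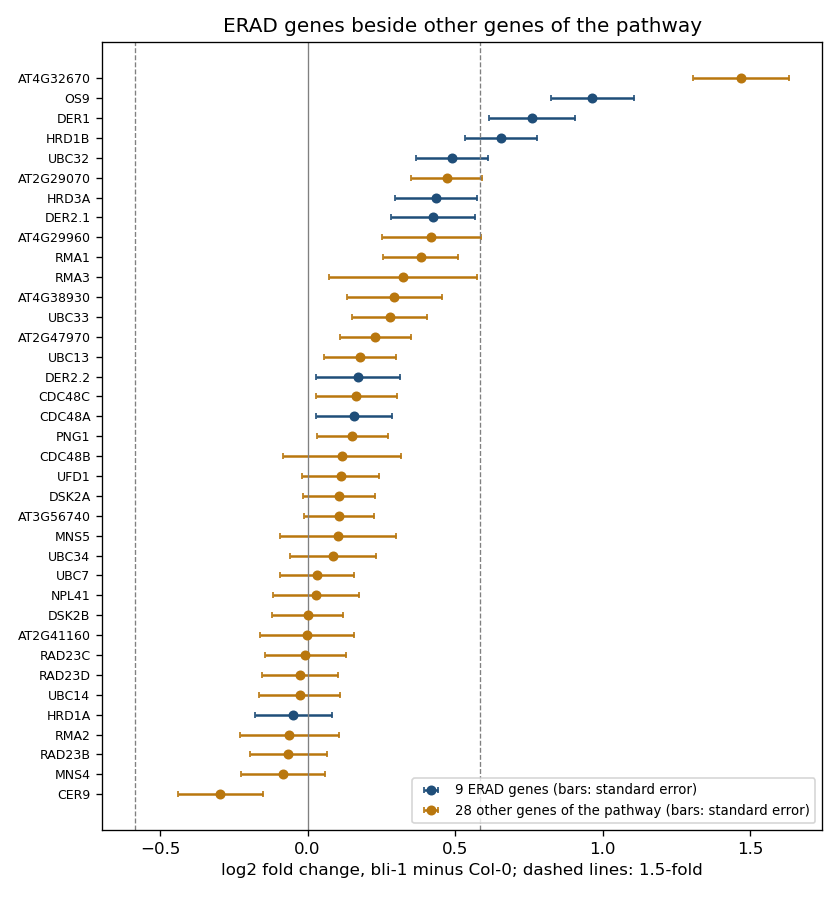
Log2 fold change between *bli-1* and Col-0 (x axis, with bars of 1 standard error) of the 9 ERAD genes (blue) and 28 other genes of the pathway (orange), in order of value. AT4G32670 lies at the top at 1.47, followed by *OS9*, *DER1*, *HRD1B* and *UBC32*, and *CER9* lies at the bottom.

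Among 10 chaperones and co-chaperones of the ER, which fold proteins or hold them for degradation, the log2 fold change was positive for 8 and negative for 2, with a median of 0.26. limma called 2 of them higher (0.0962% of all genes and transcripts) and 0 lower (0.0175%), and with the unadjusted p 3 higher (2.48%) and 0 lower (2.69%). The called genes, named after their values were seen, were *BIP3*, an ER chaperone of the HSP70 family, at 3.65 (SE 0.13; limma, adjusted p = 0.00769) and its co-chaperone *ERDJ3A* at 3.34 (SE 0.13; limma, adjusted p = 0.00984). Both log2 fold changes exceeded that of every ERAD gene. Not every probe of *BIP3* was well above background on all arrays (3 of 4), and its value ran from 3.45 to 6.49 over the 19 alternatives, with 4.38 for its brightest probe and 5.85 and 6.49 from the processed signal. Both calls stood in 9 of the 19 alternatives. They were lost with an offset of 0.5, with the processed signal in both forms, with scaling after normexp and with replicate number as a block. They were also lost without either Col-0 array, under both normalizations, and without *bli-1* replicate 2 when the remaining arrays were normalized by themselves.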

How the data were processed

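Total RNA of whole seedlings was hybridized to Agilent single colour arrays, labelled with Cy3. Per the file headers, the authors deposited the scanner software's spot intensity and local background intensity (Feature Extraction 11.0.1.1), not normalized between arrays. The study's methods name background correction, quantile normalization and limma. Here the median intensities were corrected with normexp (offset 50; limma 3.58.1, R 4.3.3), outlier spots were left out, and log2 values were quantile normalized and averaged per probe and then per gene. RefSeq accessions named a locus for 34432 of 35705 gene spots that carried one. Genotypes were compared with lmFit and eBayes on 2 arrays each, with the Benjamini-Hochberg adjustment over 34290 genes and transcripts. A call needed an adjusted p below 0.05 and a 1.5-fold change. The fit was tested on simulated data. The genes and lists were chosen with earlier results of these data known. From the wider list, the 3 highest and the 3 lowest genes by log2 fold change, well above background on all arrays, were named, with any called gene; 1 of these is not reported here. Alternatives covered background, signal column, scaling, dim and outlier spots, probe summary, eBayes options, slide, replicate number, threshold and leaving out each array. The number of arrays limits the precision. A search of promoters for ER stress elements was not run, since promoter sequences were not used here.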

Additional observations from a re-analysis of the deposited data

How the results depend on the processing

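The number of ERAD genes called higher was 0 with all 4 arrays and 3 with the unadjusted p or with slide as a block, and ranged from 0 to 3 without single arrays. The count with the unadjusted p ranged from 1 to 3 over left-out arrays, with 1 without Col-0 replicate 1. Of the other pathway genes, 1 (AT4G32670) was called with the unadjusted p, with trend and robust eBayes, or with slide as a block, and 0 to 1 without single arrays. No gene of either list was called lower in any alternative.

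The median log2 fold change of the ERAD genes was 0.57 from the processed signal with quantile normalization and 0.56 with 75th percentile scaling, and ranged from 0.38 to 0.52 over left-out arrays. Scaling the processed signal moved the median of the other pathway genes to 0.20. This scaling moved the median of all genes and transcripts to 0.27, and scaling after normexp to -0.12.

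The sign of *HRD1A* turned with the processed signal (0.017 quantile normalized, 0.044 scaled) and without Col-0 replicate 2 (0.032, or 0.033 normalized with all 4 arrays), and its values without single arrays ranged from -0.13 to 0.033. *MNS4* turned with the scaled processed signal (0.16), with the brightest probe (0.096) and without *bli-1* replicate 2 (0.041, or 0.040 normalized with all 4 arrays), and from -0.18 to 0.041 over left-out arrays, the rest renormalized. *CER9* turned with its brightest probe (0.091). The cause was not tested.

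Over all genes and transcripts, 33 were called higher and 6 lower. These counts were 0 and 0 with an offset of 0.5, with the processed signal in both forms, with scaling after normexp, without either Col-0 array, and without *bli-1* replicate 2. They were 12 and 1 without background correction, 84 and 31 without dim probes, 80 and 35 with trend and robust options, 3198 and 2492 with slide as a block, and 2969 and 2125 without *bli-1* replicate 1. Leaving out arrays under the normalization of all 4, an alternative chosen after seeing the data, gave 1201 and 848 without *bli-1* replicate 2.

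The deviations of same-numbered arrays correlated at 0.07. This single value cannot show whether same-numbered arrays were grown or handled together, since slide and raw signal also differed between the *bli-1* replicates. With the replicate block, 0 of the 9 ERAD genes were called, 3 passed with the unadjusted p, their median was 0.43, and 0 genes were called over all genes and transcripts.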
